A study of Homo sapiens with 8 samples.

Results

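The genes described here are the 69 replication-dependent histone genes of the human genome, taken as every RefSeq protein-coding gene whose symbol marks it as an H1-1 to H1-6, H2AC, H2BC, H3C or H4C gene, out of 20037 protein-coding genes. They comprise 6 H1, 17 H2A, 18 H2B, 13 H3 and 15 H4 genes. Of these, 34 lie in the large cluster on the short arm of chromosome 6 (25726063 to 26285534, hg38), 21 in the small cluster further along the same arm (27132316 to 27893891), 11 in the cluster at 1q21 (149782689 to 149887965), 2 at 1q42 (H2AC25 and H2BC26) and 1, H4C16, on chromosome 12. The chromosome 6 genes were divided at the widest gap between neighbouring members.

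Replication-dependent histone genes supply the bulk of nucleosomal histones during S phase. They are short, mostly without introns, and their mRNAs end in a stem-loop in place of a poly(A) tail. The clusters are transcribed in a nuclear compartment, the histone locus body, where NPAT, a substrate of cyclin E and CDK2, gathers. The genes are kept in many near-equal copies, and H2A and H2B genes often stand head to head across a shared promoter. MacroH2A1, the protein mapped here, is by contrast a replacement variant of H2A with a large extra domain, made outside the replication-dependent programme.

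The cells were HepG2, a human hepatoblastoma line. They received siControl, which has no target, or siANP32B, which targets the histone chaperone ANP32B, and were harvested after 3 days. In CUT&RUN an antibody brings a nuclease to the protein of interest, and the fragments it cuts free, here over 30 min, are sequenced. Of the 8 libraries, 4 used anti-macroH2A1 (siControl and siANP32B, 2 each) and are described here, and 4 used IgG and were not analysed here. Both groups carried an siRNA, 1 sequence each per the labels, and no library is labelled as untransfected. The study concerns the part of ANP32B in placing macroH2A in chromatin. The files hold 1 list of broad macroH2A1 domains per anti-macroH2A1 library and the authors' deposited table of regions compared between the siRNAs. Read totals are not among them and depth is therefore unknown. A domain list shows where a domain was called, not how much macroH2A1 it held. The files hold no expression values, so neither the cell type nor the knockdown could be checked. The labels do not say whether the 2 libraries of a group came from separate cultures, so spreads between them may be technical.

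Promoters of 6 members are shown first, as examples of each domain state met below. H2BC7 (chr6:26199266-26199565, plus strand) lay in a domain in all 4 libraries. H2BC1 (chr6:25726527-25726826, plus strand) lay just before a domain end in 1 library and inside a domain in the others. H2BC15 (chr6:27838319-27838618, plus strand) lay in a domain in replicate 1 of each siRNA. H1-1 (chr6:26017738-26018037, minus strand) was in a domain in 1 library alone, and H2BC17 (chr6:27893175-27893474, plus strand) and H2BC21 (chr1:149886633-149886932, minus strand) in none. Sequences run 5′ to 3′ from 250 bases before to 50 bases after the annotated start, from RefSeq (GRCh38.p14), and capitals mark the 3 motifs described below on either strand.
H2BC7: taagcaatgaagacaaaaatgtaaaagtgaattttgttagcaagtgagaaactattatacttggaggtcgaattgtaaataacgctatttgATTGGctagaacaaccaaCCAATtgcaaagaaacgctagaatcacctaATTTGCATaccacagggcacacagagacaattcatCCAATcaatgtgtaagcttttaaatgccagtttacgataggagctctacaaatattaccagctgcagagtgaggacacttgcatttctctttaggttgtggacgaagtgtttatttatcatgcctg
H2BC1: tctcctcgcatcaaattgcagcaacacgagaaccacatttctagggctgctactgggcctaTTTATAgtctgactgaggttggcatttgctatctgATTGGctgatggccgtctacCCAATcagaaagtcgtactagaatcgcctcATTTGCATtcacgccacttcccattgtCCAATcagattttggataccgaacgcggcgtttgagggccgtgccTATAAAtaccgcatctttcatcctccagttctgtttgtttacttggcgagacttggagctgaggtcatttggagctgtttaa
H2BC15: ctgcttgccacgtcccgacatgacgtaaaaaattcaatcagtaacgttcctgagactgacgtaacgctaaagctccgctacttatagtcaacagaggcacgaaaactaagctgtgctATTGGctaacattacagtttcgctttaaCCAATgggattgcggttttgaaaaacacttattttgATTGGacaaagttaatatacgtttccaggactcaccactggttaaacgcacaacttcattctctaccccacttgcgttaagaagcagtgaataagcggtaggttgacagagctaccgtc
H1-1: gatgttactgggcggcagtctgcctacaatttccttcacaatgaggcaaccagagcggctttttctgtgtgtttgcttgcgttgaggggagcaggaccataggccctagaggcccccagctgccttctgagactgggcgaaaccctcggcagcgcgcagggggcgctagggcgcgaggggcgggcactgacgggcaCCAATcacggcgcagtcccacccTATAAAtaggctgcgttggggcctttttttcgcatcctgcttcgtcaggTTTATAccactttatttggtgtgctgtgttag
H2BC17: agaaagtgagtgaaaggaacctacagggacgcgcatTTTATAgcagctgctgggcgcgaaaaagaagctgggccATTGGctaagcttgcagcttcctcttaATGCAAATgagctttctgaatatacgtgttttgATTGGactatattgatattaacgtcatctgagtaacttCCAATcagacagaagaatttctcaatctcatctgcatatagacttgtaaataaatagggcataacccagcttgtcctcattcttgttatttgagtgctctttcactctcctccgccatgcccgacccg
H2BC21: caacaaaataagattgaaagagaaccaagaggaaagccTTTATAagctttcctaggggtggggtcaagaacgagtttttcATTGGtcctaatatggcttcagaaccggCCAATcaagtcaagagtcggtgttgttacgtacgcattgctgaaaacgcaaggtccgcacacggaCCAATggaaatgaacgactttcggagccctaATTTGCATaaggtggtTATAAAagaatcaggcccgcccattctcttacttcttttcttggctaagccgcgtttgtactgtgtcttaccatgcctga

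The letters searched were TATAAA (the TATA box), CCAAT (the binding site of NF-Y, an activator) and ATTTGCAT (the octamer, bound by POU2F1), on both strands; none of these motifs holds another. Of 64 members with a promoter in the table, 65.6% held TATAAA, 84.4% CCAAT and 40.6% the octamer, against 9.63%, 36.4% and 1.70% of 15843 protein-coding promoters of the same length. The octamer stood in 14 of 18 H2B and 11 of 16 H2A promoters, and in 0 of 13 H4 promoters. CCAAT stood in all 18 H2B, 16 H2A, 11 H3 and 6 H1 promoters that could be read, and in 3 of 13 H4 promoters. H2A and H2B genes that stand head to head share much of this sequence, so their promoters are not separate observations. H3C4 and H2AC7 have the same annotated start, so the same promoter was counted under H3 and under H2A. The promoters of the near-identical copies H3C14 and H3C15 had equal GC content (54.0%), as did those of H4C14 and H4C15 (54.7%). These are not separate observations either.
Motif shares were also counted by the coverage state of the gene. Of the 64 promoters, 62 were covered in the same number of libraries as their gene, and H2BC1 and H2BC5 were the exceptions. TATAAA stood in 60.0% of the 30 promoters whose gene was in a domain in all 4 libraries and in 70.6% of the 17 whose gene was in no domain. CCAAT stood in 86.7% and 82.4% of these promoters, and the octamer in 46.7% and 41.2%. Of the 17 promoters whose gene was covered in 1 to 3 libraries, 70.6% held TATAAA, 82.4% CCAAT and 29.4% the octamer. Among H2B genes alone, the octamer stood in 72.7% of 11 promoters covered in all 4 libraries and in all 3 covered in none. Over all families, the median GC content was 41.5% in the 30 promoters covered in all 4 libraries and 45.0% in the 17 covered in none. Both were below the 62.7% of all protein-coding promoters. These shares are descriptions of letters in a window, and the differences between them were not tested.

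In each library nearly every one of these genes was either wholly inside a macroH2A1 domain or wholly outside, and neighbours mostly shared their state. With a median member of 494 bp and domains on a 1 kb grid, partial coverage could seldom arise. A gene is called covered here if domains held 50% or more of its base pairs. Covered members numbered 45 and 35 in the siControl libraries (replicates 1 and 2) and 46 and 37 in the siANP32B libraries. In siControl 40.0 ± 7.07 members were covered and in siANP32B 41.5 ± 6.36 (SD, n = 2 each; exact permutation test, two-sided, p = 0.667, where 2 libraries against 2 cannot go below 0.333). The replicates of each siRNA differed by more than the groups did, and replicate 1 was the higher in both. The groups overlapped.

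As a background, 20%, 16.6%, 24.3% and 20.7% of all protein-coding genes were covered in siControl replicates 1 and 2 and siANP32B replicates 1 and 2, against 65.2%, 50.7%, 66.7% and 53.6% of the members. Domains of both siControl libraries covered 35 members (50.7%), where 13.7% of all protein-coding genes and 14.3% of the 467 other genes of 1 kb or less were covered in both. Both siANP32B libraries covered 33 members (47.8%, against 17.2% of protein-coding genes). The members' median length was 494 bp, and 61 of the 69 were of 1 kb or less. The median gene had 0% of its length in domains in each library, whereas the median member had 100%, 70.7%, 100% and 100%. Members lie side by side, so a handful of domains sets these counts: in each library the covered members of the large cluster rested on 2 or 3 domains and those of the small cluster on 2.

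All 4 libraries covered 31 members (44.9%, against 11.5% of protein-coding genes and 13.5% of the other short genes). No library covered 19 (27.5%, against 69.1% and 70.4%), and 19 more were covered in 1 to 3 libraries, against 19.4% of protein-coding genes. The count of 31 depends on low-scored domains, as described further on: with the lowest-scored 25% of domains of each list left out, 1 gene was covered in all 4 libraries. No member was covered in both siControl and neither siANP32B library, a state met in 0.594% of protein-coding genes. No member was covered in both siANP32B and neither siControl library either, against 2.2% of protein-coding genes. With 69 members, shares as small as these leave few or no genes to be counted, so the absence of such members shows no difference from other genes.

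**Figure D1:**
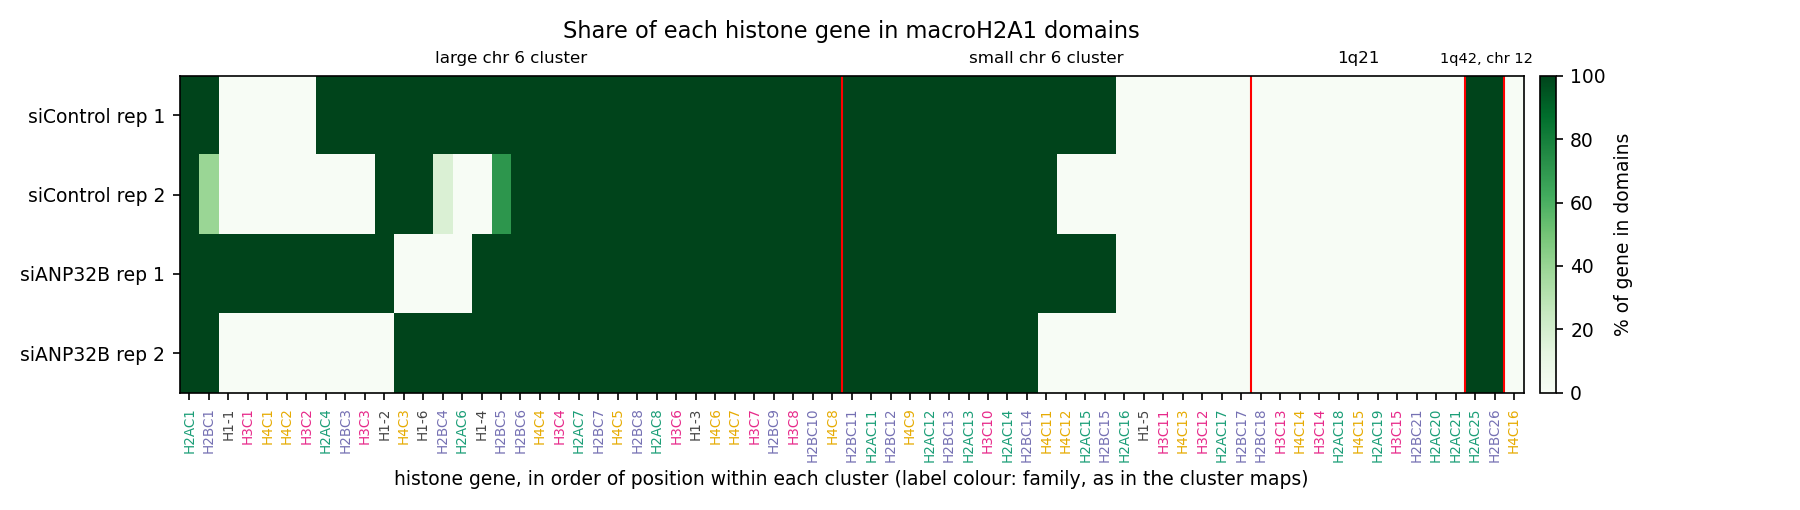
Share of each of the 69 histone genes in macroH2A1 domains (colour, 0 to 100%), in 4 libraries (rows), with genes ordered by position within each cluster (columns, red lines between clusters). The 19 genes of the large chromosome 6 cluster that are covered in every row are H2AC1 and the run from H2BC5 to H4C8, and the 11 genes at 1q21 are white in every row.

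Each family had covered and uncovered genes. Of the H2B genes, 11 of 18 were covered in all 4 libraries, 15 and 11 in siControl and 14 and 13 in siANP32B. For H2A, the family that macroH2A1 replaces in nucleosomes, 8 of 17 were covered in all 4 libraries, with 11 and 8 in siControl and 10 and 9 in siANP32B. H3 genes gave 5 of 13 in all 4 libraries, with 6 and 5 in siControl and 8 and 5 in siANP32B, and H4 genes 6 of 15, with 9 and 8 against 10 and 7. Of the 6 linker histone genes, only H1-3 was covered in all 4 libraries, H1-5 in none, and the count was 4 and 3 in siControl as in siANP32B. The siRNA groups overlapped in each of the 5 families. Of the 11 head-to-head H2A-H2B pairs, which stand 193 to 247 bp apart, 10 had the same coverage calls in both genes. The exception was H2AC1 and H2BC1, described with the large cluster. Domains lie on a 1 kb grid and had median lengths of 38 to 48 kb, so genes this close would mostly share a call. The count is therefore not a result about paired genes.

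The large chromosome 6 cluster was mostly inside domains. Domains took up 85.7% and 76.4% of its 559 kb in siControl and 80.2% and 74.3% in siANP32B, or 81.1 ± 6.57% against 77.2 ± 4.17% (SD, n = 2 each). The difference of -3.84 percentage points was smaller than the spread between replicates, and the groups overlapped (exact permutation test, two-sided, p = 0.667). By comparison, domains took up 24.8% and 23.5% of chromosome 6 in siControl and 27.0% and 28.4% in siANP32B. The 847 kb between the 2 chromosome 6 clusters were also above the chromosome, at 50.3% and 51.3% in siControl and 45.7% and 53.4% in siANP32B. The difference for chromosome 6 was 3.57 points (exact permutation test, two-sided, p = 0.333, the smallest these 4 libraries can give), with both siANP32B libraries above both siControl libraries. The sign of the cluster's own difference was not stable: it turned to 0.804 points without siControl replicate 1 and to 4.34 points over gene bodies alone. Of the 34 genes, 29 and 22 were covered in siControl and 30 and 25 in siANP32B.

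The 18 genes from H2BC5 to H4C8 at the far end of the large cluster were covered in all 4 libraries without a break. A stretch of 124 kb (26162001 to 26285534) lay in a domain in all 4 libraries and touches 18 members, among them the linker histone gene H1-3, the head-to-head pair of H2AC7 and H2BC7, and H4C4 to H4C8. Every one of them was fully covered in each library, apart from H2BC5 in siControl replicate 2, at 70.7%, where a domain began inside the gene at 26162001. The annotated H2BC5 gene is 13.2 kb long, longer than a histone coding sequence. Its promoter was 0% covered in siControl replicate 2 and 100% in the other libraries. The start of H2BC5 thus lay outside domains in siControl replicate 2. The domain over this stretch ran past the last histone gene, H4C8, to between 26365000 and 26422000.

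H2AC1 and H2BC1, which encode testis forms of H2A and H2B, stand 290 kb before the other genes of the large cluster, in a separate domain. In siControl replicate 1 this domain ran for 366 kb and took in the anion transporter genes SLC17A1 to SLC17A4, and in the other 3 libraries it was broken inside SLC17A1. H2AC1 was 100% covered in all 4 libraries. H2BC1 was 100% covered in siControl replicate 1 and in both siANP32B libraries and 39.4% covered in siControl replicate 2, whose domain ended inside the gene at 25727000. That end lies 0.438 kb past H2AC1 and downstream of the H2BC1 promoter printed above, which was 100% covered in each library. The next domain of siControl replicate 2 began at 25733001, so the break spanned 6 kb.

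Between these 2 stretches, the 14 members from H1-1 to H1-4 differed among libraries without following the siRNA. H1-1, a linker histone gene, and its neighbours H3C1, H4C1, H4C2 and H3C2 were 100% covered in siANP32B replicate 1 and 0% covered in the other 3 libraries. H2AC4, H2BC3 and H3C3 were 100% covered in replicate 1 of both siRNAs and 0% in replicate 2 of both. In siControl replicate 1 that domain began at 26033001, between H3C2 and H2AC4. H1-2 was 100% covered in both siControl libraries and siANP32B replicate 1, and 0% in siANP32B replicate 2.
From H4C3 on, siANP32B replicate 1 was without a domain as far as H2AC6. H4C3 and H1-6, the testis linker histone gene, were 100% covered in both siControl libraries and siANP32B replicate 2, and 0% in siANP32B replicate 1. H2BC4 was 100% covered in siControl replicate 1 and siANP32B replicate 2, 17% in siControl replicate 2 and 0% in siANP32B replicate 1. H2AC6 was 100% covered in the same 2 libraries and 0% in the others. H1-4 was 0% covered in siControl replicate 2, whose domain ended 0.329 kb before the gene, and 100% in the other 3 libraries. In this stretch the 2 siANP32B libraries had opposite calls at 13 of the 14 genes, and the 2 siControl libraries at 6.

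**Figure D2:**
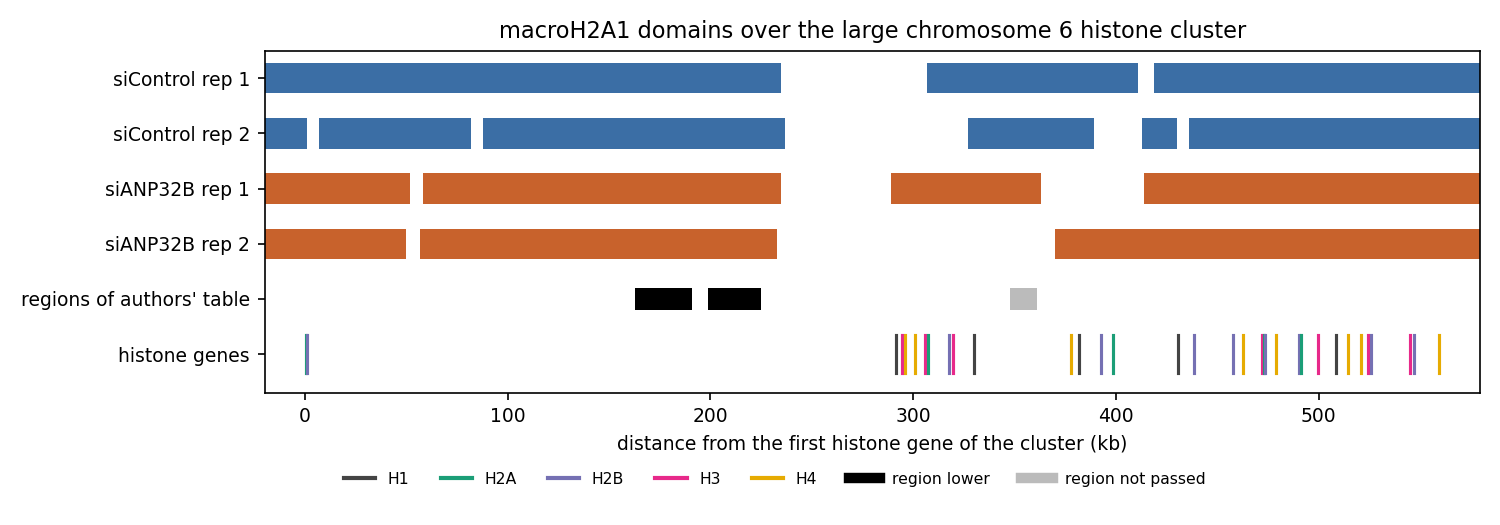
Domains (bars, blue for siControl and orange for siANP32B) in each library over the large chromosome 6 cluster, by distance from its first histone gene in kb, above the regions of the authors' deposited table (black, lower; grey, not passed) and the histone genes coloured by family. All 4 libraries have a gap of at least 52 kb before the main run of genes and a common domain over its far end, and the stretch between varies from library to library.

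No histone gene separated the siRNAs with all domains. Nearly all members were at 0% or 100% in each library, which makes ties between the groups common. Longer genes can take values in between, so this absence is no contrast with them. Inside the large cluster, 2 other protein-coding genes separated the siRNAs, HFE (10.9 kb) and SLC17A4 (26.5 kb). For each of these 2 genes the exact permutation test (two-sided) gave p = 0.333, the smallest these 4 libraries can give. The share of all protein-coding genes with groups that do not overlap was not counted. HFE, whose product regulates iron uptake and is mutated in hereditary haemochromatosis, stands between H1-2 and H4C3. It was 100% covered in both siControl libraries and 14.4% and 21.5% covered in the siANP32B libraries, so that the groups did not overlap. SLC17A4 was 100% covered in both siControl libraries and 87.9% and 80.4% in the siANP32B libraries. Neither separation held with the lowest-scored 25% of domains left out: HFE was then 100% covered in siControl replicate 2 and 0% in the other 3 libraries, and SLC17A4 100% and 0% in siControl and 87.9% and 80.4% in siANP32B. With equal numbers of best-scored domains per library, both genes kept the values they had with all domains. With all domains, HFE is among the 119 protein-coding genes (0.594%) covered in both siControl and neither siANP32B library, and no tested region of the authors' deposited table overlapped it. Sequence in both siControl and neither siANP32B library came to 12 kb in this cluster, of which 7 kb (26089001 to 26096000) lay in HFE and 5 kb (25778001 to 25783000) in SLC17A1 and across the end of SLC17A4. The opposite set came to 0 kb. In the small cluster 3 kb lay in both siControl and neither siANP32B library, and 6 kb in the opposite set. In the large cluster, all 4 libraries covered 347 kb (62.1%), and none covered 52 kb (9.29%), a single stretch that holds most of the ubiquitin ligase gene TRIM38.

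The small chromosome 6 cluster lay mostly inside domains over its whole span, but less so where its genes are. Domains took up 74.7% and 71.8% of its 762 kb in siControl and 74.7% and 74.3% in siANP32B, or 73.2 ± 2.04% against 74.5 ± 0.279% (SD, n = 2 each). The difference of 1.25 points was within the spread of the siControl replicates (exact permutation test, two-sided, p = 1.00). Most of this span, 660 kb, holds no histone gene. Over the 2 blocks that hold the genes, the mean share was 43.1% in siControl and 36.7% in siANP32B. The first block (15.2 kb) was 100% in domains in each library, and the second (86.4 kb) had 40.0% and 26.1% of its length in domains in siControl, against 37.6% and 13.3% in siANP32B, with overlapping groups. Covered genes numbered 14 and 11 of 21 in siControl and 14 and 10 in siANP32B.
At its near end H2BC11, H2AC11, H2BC12, H4C9 and H2AC12 were 100% covered in every library, by domains of 163 to 361 kb. Past the long stretch without histone genes, H2BC13, H2AC13, H3C10, H2AC14 and H2BC14 were likewise 100% covered in every library. At the far end H2AC16, H1-5, H3C11, H4C13, H3C12, H2AC17 and H2BC17 were 0% covered in every library.

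The domain that holds the middle genes ended at a different place in each library. It ended at 27842000 in siControl replicate 1, 27830000 in siControl replicate 2, 27840000 in siANP32B replicate 1 and 27819000 in siANP32B replicate 2, a range of 23 kb over which the siRNA groups overlapped. H4C11 was therefore 100% covered in 3 libraries and 0% in siANP32B replicate 2. H4C12, H2AC15 and H2BC15 were 100% covered in replicate 1 of both siRNAs and 0% in replicate 2 of both. The ends in the 2 replicates 1 lay 2.89 and 0.890 kb past H2BC15. The 7 uncovered genes began with H2AC16, whose distance from the nearest domain was 23.3 and 35.3 kb in siControl and 25.3 and 46.3 kb in siANP32B, and H2BC17, the last of them, was 51.4 to 74.4 kb away.

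**Figure D3:**
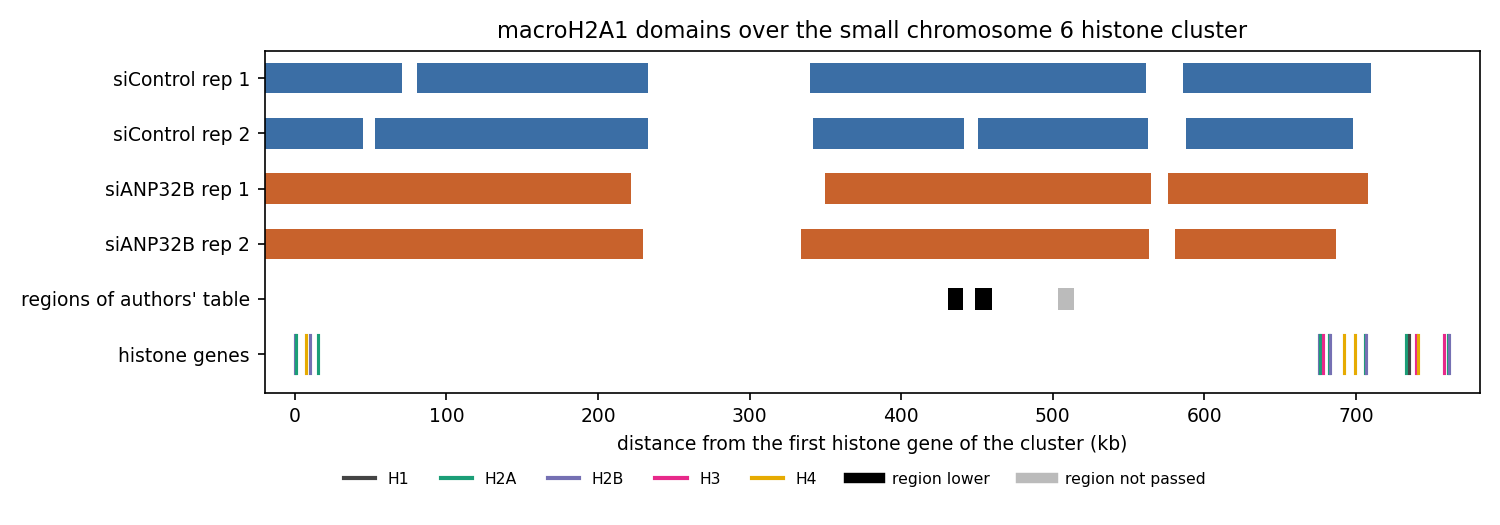
Domains in each library over the small chromosome 6 cluster, by distance from its first histone gene in kb, drawn as in the map of the large cluster. The near-end genes and the first of the far group lie under bars in all 4 libraries, and the last 7 genes lie past the end of the last bar in each.

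Of all domain starts and ends in the 3 main clusters and 100 kb on either side, 2 were found in all 4 libraries within 5 kb, and both were domain ends away from histone genes. The first lay at 25961000 and 25963000 in siControl and 25961000 and 25959000 in siANP32B, near the left end of TRIM38 and 54.0 kb or more before H1-1. The second lay at 27694000 and 27695000 in siControl and 27697000 and 27696000 in siANP32B, 110 kb or more before H2BC13. By contrast, the borders inside or next to histone genes described above were each found in that place in 1 library, or in 2 libraries of different siRNAs.

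Other genes inside the clusters were mostly covered too. In the small cluster 51 tRNA genes are annotated between the histone genes, and 49 and 49 of them were covered in siControl and 49 and 51 in siANP32B, with 45 in all 4 libraries. These tRNA genes were added after their annotation was seen, and tRNA genes elsewhere were not counted. Domains took up 71.8% to 74.7% of the whole span of the small cluster, so these counts are not a result about tRNA genes as such. PRSS16, a serine protease gene, and POM121L2 were 100% covered in each library, whereas the zinc finger gene ZNF391 was 0% covered in each and ZNF184 at most 10.3%, around a stretch of 101 kb that was in no domain of any library. In the large cluster SLC17A3 and SLC17A2 were 100% covered in each library, and SLC17A1 88.9% to 100%.

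The cluster at 1q21 had no domain at all. All 11 genes (H2BC18, H3C13, H4C14, H3C14, H2AC18, H4C15, H2AC19, H3C15, H2BC21, H2AC20 and H2AC21) were 0% covered in the 4 libraries, as was the whole span of 105 kb and the Fc receptor gene FCGR1A that overlaps H2BC18. The domain-free stretch around the cluster was 1667 and 1796 kb long in siControl and 1210 and 1112 kb in siANP32B, so that it was shorter in both siANP32B libraries. Domains also took up more of chromosome 1 as a whole in siANP32B (18.5% and 18.7%) than in siControl (17.7% and 15.4%). The nearest domain lay 285 and 310 kb past the cluster in siControl and 275 kb past it in siANP32B replicate 1, and 196 kb before it in siANP32B replicate 2. Several of these genes come in near-identical copies (H2AC18 and H2AC19, H3C14 and H3C15, H4C14 and H4C15), where reads cannot be placed with certainty. How such reads were treated was not given in the sources used here, and its part in the absence of domains was not tested.
The remaining genes went both ways. H2AC25 and H2BC26 at 1q42 were 100% covered in each library, by domains of 41 and 80 kb in siControl and 72 and 67 kb in siANP32B. H4C16 on chromosome 12 was 0% covered in each, and its nearest domain was 164 kb away in siControl replicate 1 and 516, 814 and 518 kb in siControl replicate 2 and siANP32B replicates 1 and 2.

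**Figure D4:**
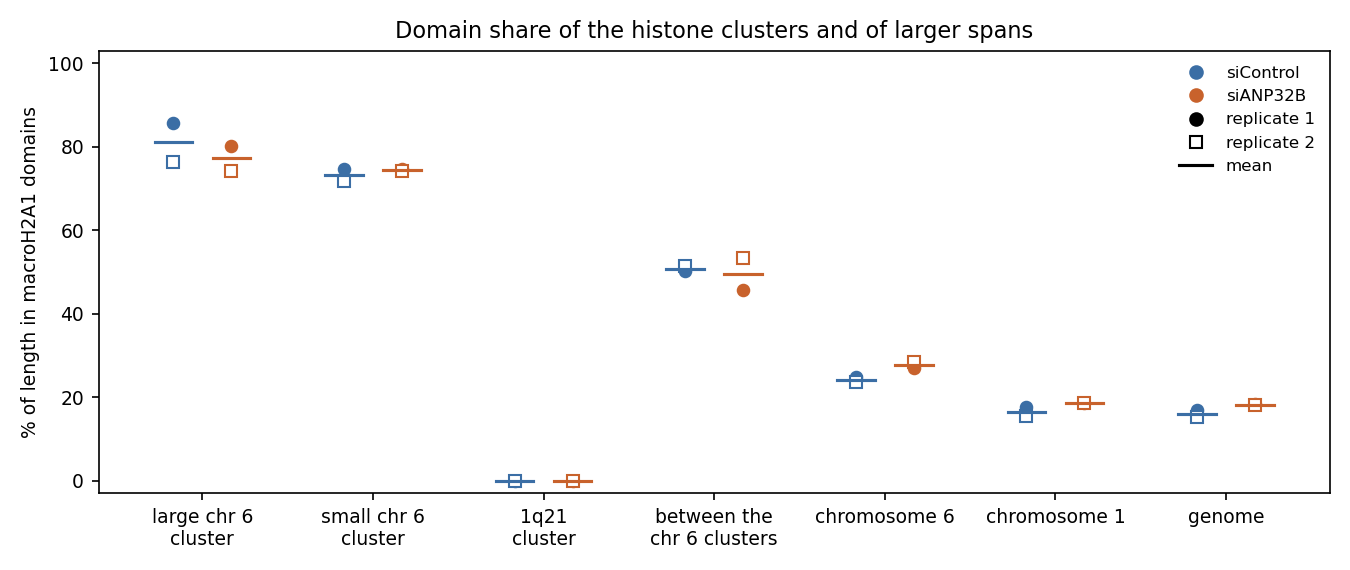
Percent of the length of each span in macroH2A1 domains, per library (filled circles, replicate 1; open squares, replicate 2; bars, group means). Both chromosome 6 clusters sit between 71.8% and 85.7%, the sequence between them at 45.7% to 53.4%, and the 1q21 cluster at 0%. Chromosome 6 sits at 23.5% to 28.4% and the genome at 15.1% to 18.3%.

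The domains over histone genes were long but mostly ranked low in their own lists by the authors' score per domain, whose basis was not given in the sources used here. In the small cluster the domain with H2BC13 to H2BC14 scored higher than only 11.9% and 0.850% of all domains of its list in siControl and 3.60% and 5.89% in siANP32B. In the large cluster the domain with H2BC5 to H4C8 scored higher than 35.7% and 7.33% of domains in siControl and 16.1% and 10.3% in siANP32B. Their lengths were 106 to 132 kb and 206 to 277 kb, against median lengths over all domains of 38 and 39 kb in siControl and 47 and 48 kb in siANP32B. At 1q42 the domain with H2AC25 and H2BC26 was shorter, at 41 to 80 kb. It scored higher than 44.1% and 3.51% of domains in siControl and 68.6% and 64.7% in siANP32B. When the lowest-scored 25% of domains of each list were left out, 23 and 9 members stayed covered in siControl and 4 in each siANP32B library. H2AC1 alone was then covered in all 4 libraries, 1.45% of the members against 6.58% of protein-coding genes and 8.78% of the other short genes. Domains with H2AC1 scored higher than 50.0% and 71.0% of domains in siControl and 41.8% and 54.0% in siANP32B. With these filtered domains the share of members in all 4 libraries was below the background, and with all domains above it.

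No histone gene overlapped a region of the authors' deposited table, so the table gives no fold for any member. It lists 4474 regions, and 9.25% of all protein-coding genes and 5.57% of the other genes of 1 kb or less overlap one. The count of members overlapping a lower region was 0 at a false discovery rate (FDR) of 0.05 in the authors' deposited table (edgeR, per the submitters' processing notes) and at an unadjusted p under 0.05, as it must be where no member overlaps any region, while 5.61% of protein-coding genes overlap a lower region and 0.539% a higher one. The nearest tested region lay 13.5 to 102 kb from the members of the large cluster (median 52.5 kb) and 161 to 430 kb from those of the small cluster (median 221 kb). The 31 members in domains of all 4 libraries thus lay outside the sequence that the authors compared.

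Between the histone genes, the authors' deposited table holds 6 regions in the spans of the chromosome 6 clusters, of which 4 were lower and 2 did not pass. Of all its regions 58.4% were lower and 3.82% higher, so 4 of 6 is near the background. In the authors' deposited table the regions at 25889001 to 25917000 and 25925001 to 25951000, both reaching into SLC17A2, had log2 folds of -0.65 (FDR 0.00740) and -0.48 (FDR 0.0360). The regions at 27563001 to 27573000 and 27581001 to 27592000, in the gap between the histone genes of the small cluster, had -0.56 (FDR 0.00341) and -0.48 (FDR 0.0137) in the authors' deposited table. The region at 26074001 to 26087000, between H1-2 and HFE and nearest to H4C3 (16.9 kb away), had -0.26 (FDR 0.302) in the authors' deposited table and did not pass, and that at 27636001 to 27646000, before H2BC13, had -0.19 (FDR 0.344). The median log2 fold over all regions of the authors' deposited table was -0.54, so these 6 folds lie on both sides of it. Beyond the last gene of the large cluster, a region 13.5 kb past H4C8 had -0.43 (FDR 0.0260) in the authors' deposited table.

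Histone genes outside the set were covered at shares near those of all protein-coding genes. The latter were 20% and 16.6% in siControl, 24.3% and 20.7% in siANP32B, and 11.5% in all 4 libraries. Of 25 further histone genes (replacement variants and germline histones, from a list chosen with earlier results known), 4 and 5 were covered in siControl and 6 and 4 in siANP32B, and 4 in all 4 libraries. Those 4 were H3-4, which encodes a testis H3 and lies near H2AC25, H3-5, H2BN1 and the oocyte linker histone gene H1-8. H3-3B, which encodes H3.3, and CENPA, which encodes the centromeric H3, were 100% covered in siANP32B replicate 1 and 0% in the other 3 libraries. Beyond the rule for named genes, H2AP and MACROH2A1 were picked after their values were seen. H2AP was covered in siControl replicate 2 alone and overlapped a lower region of the authors' deposited table. MACROH2A1, which encodes the mapped protein, was 31.5% and 4.41% covered in siControl and 1.35% and 0% in siANP32B, below 50% in each library.
Of the 27 genes found for factors of histone gene transcription and mRNA processing, 1 and 0 were covered in siControl and 2 and 1 in siANP32B, and none in all 4 libraries. As a background, 20% and 16.6% of all protein-coding genes were covered in siControl, 24.3% and 20.7% in siANP32B, and 11.5% in all 4 libraries. NPAT, CASP8AP2 and SLBP, which binds the stem-loop of histone mRNAs, were 0% covered in each library (named after their values were seen). The cell cycle factor gene E2F1 was 100% covered in replicate 1 of both siRNAs, and 3.53% and 21.9% in replicate 2 of siControl and siANP32B. ERI1, an exonuclease gene, was 43.4% and 41.4% covered in siControl and 55.8% and 61.9% in siANP32B, so that the groups did not overlap. How many of all genes do the same was not counted. Domains also took up more of the genome in siANP32B (18.3% and 18.1%) than in siControl (16.8% and 15.1%). ERI1 overlapped 2 regions of the authors' deposited table, of which 1 was called higher.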

How the data were processed

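MacroH2A1 CUT&RUN domains of 4 HepG2 libraries (siControl and siANP32B, 2 each) and 1 table of compared regions were used and the 4 IgG libraries left out. The build was hg38 and the tools SICER, edgeR, Bowtie2, SAMtools, deepTools and Trim Galore, per the submitters' processing notes. Versions, settings, control libraries and treatment of multiply mapping reads were not given in the sources used here. Each anti-macroH2A1 library has its own list of domains on a 1 kb grid, deposited with a score per domain. Per the file headers, each region of the authors' deposited table has numbers of windows, a p-value, its FDR, and the log fold of a representative window, read as log2 after edgeR's convention. The table has no values per library, so no count test was run. The order of its groups is not named in it: regions with positive folds that passed 0.05 were in domains (50% or more) at shares of 88.3% and 80.7% for siControl and 99.4% for each siANP32B library, so positive was read as higher after siANP32B. Depth is unknown, so no intervals are given.

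Members, clusters and lists were chosen with earlier results of these data known. Gene spans came from RefSeq (GRCh38.p14, the assembly of hg38; 59679 genes). Coverage was computed per base pair with Python 3.11.15 and pandas 2.3.3 and checked on simulated domains. Values per library were compared by an exact permutation test (scipy 1.17.1). Values in every library are given for members whose domain share differs by 50 points or more between libraries, members with a domain border inside, and members next to a border; protein-coding neighbours inside the clusters could be named, and up to 6 genes per further list. Promoters came from RefSeq's first listed start per gene; 64 of 69 members matched. Alternatives were domain score filters, other coverage rules and spans, other border tolerances and each library left out.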

Additional observations from a re-analysis of the deposited data

How the results depend on the processing

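The differences between siRNAs in domain share and in covered genes had no stable direction. For the large cluster, the siANP32B minus siControl difference of -3.84 points became -13.4 with the lowest-scored 25% of domains left out, 7.20 with equal numbers of best-scored domains per library and 4.34 over gene bodies alone, and leaving out 1 library gave -8.49 to 0.804 (the latter without siControl replicate 1). For the small cluster, 1.25 points became 11.7 and 21.3 under these score filters, -1.09 over gene bodies and -6.39 over blocks of genes, and -0.197 to 2.69 with 1 library left out (the former without siControl replicate 2). The difference of 1.5 covered genes became -12.0 with the lowest-scored domains left out (16 against 4) and 21.5 with equal numbers of domains (20 against 41.5), and -3.5 to 6.5 with 1 library left out, below 0 without siControl replicate 2 (-3.5) and without siANP32B replicate 1 (-3). The 31 genes covered in all 4 libraries became 1 (H2AC1) with either score filter, alternatives chosen after seeing the data, and 31 to 33 with 1 library left out. The 2 shared borders became 0 within 2 kb and 1 with the lowest-scored domains left out. The lists held 8623 and 8116 domains in siControl and 7530 and 7404 in siANP32B. Equal numbers meant 7404 domains kept per library, so this filter took most from siControl and none from siANP32B replicate 2. Under it covered genes numbered 31 and 9 in siControl and stayed at 46 and 37 in siANP32B. Shifts towards siANP32B were thus favoured by the design of this filter. The cause of the moves listed here was not tested. For SLC17A4 the difference of -15.8 points became 34.2 with the lowest-scored domains left out and was unchanged with equal numbers of best-scored domains. The 1q21 share and the count of genes in lower regions were 0 throughout, which the alternatives could not change, since no domain or tested region lay within their reach. With the replicate block (differences within each replicate number), the differences were the same by construction (-3.84 and 1.25 points, 1.5 genes), with p = 0.50, 1.00 and 0.50, where 2 pairs cannot go below 0.50; the labels give no shared source for a number, and the correlation of replicate deviations between the siRNAs over 20037 genes was 0.0819. Depth is unknown, so a gene outside a domain may lie in one at greater depth.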
